A study of Mus musculus with 10 samples.

Results

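A set of 7 mouse genes, chosen as nested or overlapping genes whose counts shift on conversion, was followed through 4-thiouridine (4sU) labelling and chemical conversion of RNA. The members were Fam122a, Pip5k1b, Zbed6, Zc3h11a, Zbed5, Ccdc85b and Rsc1a1, that is 7 of the 17053 genes in the deposited table. They were picked by name because their read counts, or those of a gene lying inside them, differed between converted and unconverted 4sU libraries. Their counts in those libraries are therefore given below as a description, without a test, and 1 of them, Zbed5, overlapped no other gene in the annotation used. RNA came from NIH-3T3, an established mouse embryonic fibroblast line of wild-type genotype, grown with 10% newborn calf serum. There were 10 libraries in 5 groups, with replicates A and B in each. TUC libraries came from cells given 800 µM 4sU for 2 h, with osmium tetroxide and an ammonium salt applied to the extracted RNA. SLAM libraries came from cells labelled in the same way, whose RNA was alkylated with iodoacetamide. Unconverted 4sU libraries came from cells labelled in the same way, with no conversion step. Uridine libraries came from cells given 800 µM uridine for 2 h, and untreated libraries from cells given neither compound. The study's title names bias in quantification by these protocols as its question.

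A nested gene lies wholly within the span of another gene, often inside an intron of this host. Many nested genes have few or no introns of their own, and several derive from transposons or from copied messenger RNAs. Cells take up 4sU, a thiol form of uridine, and place it in transcripts made during the labelling, and both chemistries change it so that labelled positions read as T-to-C mismatches, which separates new from pre-existing RNA.

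RefSeq's gene table places Fam122a within Pip5k1b on chromosome 19 and Zbed6 within Zc3h11a on chromosome 1. Rsc1a1 lies within Ddi2 on chromosome 4, and Ccdc85b overlaps Fosl1 in part on chromosome 19. Zbed6 and Rsc1a1 have the strand of their hosts. No single strand was found for Pip5k1b and Fosl1 in the promoter set used, so whether those pairs share a strand is unknown here. Zbed5, on chromosome 5, overlapped no gene of that table, so its place among nested or overlapping genes was not borne out. Its count was nonetheless not whole in 10 of 10 libraries, so reads it shares with other positions or genes appear to have been split. Counts of Zc3h11a were not whole in 7 libraries, those of Fam122a, Zbed6 and Ccdc85b in 1 library each, and those of Rsc1a1 and Pip5k1b in 0. How reads in overlapping sequence were assigned, and whether strand was used, is not given in the sources used here, so levels of overlapping genes are uncertain.

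The start regions of the same-strand pairs are shown because they give inner gene and host separate annotated starts. The windows run from 250 bases before to 50 after each start in RefSeq's GRCm38.p6, on the minus strand. The Zbed6 window is chr1:133660836-133661135 and the Zc3h11a window chr1:133661350-133661649. The Rsc1a1 window is chr4:141685667-141685966 and the Ddi2 window chr4:141723370-141723669. Capitals mark CG pairs, which read CG on either strand.
Zbed6: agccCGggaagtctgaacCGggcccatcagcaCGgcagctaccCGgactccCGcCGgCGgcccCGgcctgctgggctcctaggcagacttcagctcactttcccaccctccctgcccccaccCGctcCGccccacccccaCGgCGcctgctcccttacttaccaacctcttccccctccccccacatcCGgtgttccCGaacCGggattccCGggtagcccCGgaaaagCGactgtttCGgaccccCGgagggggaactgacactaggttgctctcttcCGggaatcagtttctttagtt
Zc3h11a: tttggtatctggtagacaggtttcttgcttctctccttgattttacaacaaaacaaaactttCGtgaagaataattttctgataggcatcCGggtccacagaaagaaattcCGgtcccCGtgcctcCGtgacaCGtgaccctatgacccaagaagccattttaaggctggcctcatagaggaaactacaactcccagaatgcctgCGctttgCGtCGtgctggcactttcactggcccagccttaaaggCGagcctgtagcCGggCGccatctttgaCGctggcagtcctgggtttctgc
Rsc1a1: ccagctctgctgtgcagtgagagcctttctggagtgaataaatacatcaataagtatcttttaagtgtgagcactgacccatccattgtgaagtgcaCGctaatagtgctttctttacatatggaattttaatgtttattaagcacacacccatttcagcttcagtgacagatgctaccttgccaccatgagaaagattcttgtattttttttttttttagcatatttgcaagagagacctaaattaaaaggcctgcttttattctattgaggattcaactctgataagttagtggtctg
Ddi2: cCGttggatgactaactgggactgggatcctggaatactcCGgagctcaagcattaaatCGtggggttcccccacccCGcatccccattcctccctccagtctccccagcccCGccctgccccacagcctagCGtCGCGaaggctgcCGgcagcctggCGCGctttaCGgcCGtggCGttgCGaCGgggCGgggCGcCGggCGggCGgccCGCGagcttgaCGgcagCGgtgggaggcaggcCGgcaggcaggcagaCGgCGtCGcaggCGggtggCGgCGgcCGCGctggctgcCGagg
The Zbed6 and Zc3h11a windows did not overlap and held 21 and 13 CG pairs. The Rsc1a1 window held 1 CG pair and a GC content of 37.0%, against 35 pairs and 72.7% for its host Ddi2. Over the 32851 promoters of 300 bases in the table, the median was 7 CG pairs, 94.57% held at least 1, and 5.43% held fewer than the Rsc1a1 window. The windows of Fam122a, Zbed5 and Ccdc85b held 36, 18 and 15 pairs. A window was found for 6 of the 7 members.

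Library totals were between 27094222 and 33785682 counts. All 10 fibroblast markers listed (Col1a1, Vim, Thy1 and others) were in the table, with summed levels of 17210 to 25620 CPM (library-scaled counts, with edgeR's TMM factors). Epithelial markers summed to 0.0369 to 0.147 CPM, endothelial ones to 0.296 to 1.07 CPM and macrophage ones to 7.62 to 15.6 CPM. Libraries of the same letter moved together across groups, and the letter is used below as a block where it changes a call. These are bulk levels, in which fewer cells with an RNA and less RNA per cell cannot be told apart.

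Pip5k1b, which encodes a kinase that makes phosphatidylinositol 4,5-bisphosphate, gave 0 counts in 9 libraries and 1 count in unconverted 4sU A. It did not pass the filter on low counts, and 6 of the 7 members were tested. Its inner gene Fam122a was counted in every library, at 78 to 386 counts. The other phosphatidylinositol phosphate kinases were measured: 5 of 7 listed genes were tested and none was called against unconverted 4sU, where edgeR called 0.0% of all genes in TUC and 0.344% in SLAM. With the letter as a block 2 of the 5 were called lower in TUC and 1 in SLAM. That block called 11.6% of all genes higher and 14.2% lower in TUC, and 20.0% higher and 21.6% lower in SLAM, which is the background of every list below. Pip5k1a averaged 76.6 CPM in TUC, 82.6 CPM in SLAM and 94.5 CPM in unconverted 4sU libraries, and Pip5k1c averaged 76.9, 89.9 and 85.1 CPM in the same groups.

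Fam122a, whose human counterpart inhibits the B55 form of protein phosphatase 2A, stood highest after SLAM conversion. It had 5.37 and 4.01 CPM in TUC libraries A and B, and 11.5 and 11.3 CPM in SLAM libraries, against 3.67 and 3.53 CPM in unconverted 4sU libraries. Both SLAM libraries lay above all 8 other libraries, and both TUC libraries lay above both unconverted ones. The log2 fold change was 1.66 ± 0.182 (SE) in SLAM and 0.38 ± 0.187 in TUC, each against unconverted 4sU. SLAM put Fam122a at place 36 from the highest of 12218 genes. Its paralogue Fam122b had log2 fold changes of −0.19 ± 0.126 in TUC and −0.09 ± 0.125 in SLAM. Of 9 genes of the phosphatase circuit it acts on (among them Ensa, Arpp19 and Mastl), none was called in TUC or SLAM against unconverted 4sU, and the median log2 fold changes were 0.04 and −0.05, beside 0.009 and 0.002 over all genes tested. With the letter as a block 0 of the 9 were called in TUC, and 2 were called higher and 2 lower in SLAM.

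Ccdc85b, a coiled-coil protein whose human counterpart was first described as a partner of the hepatitis delta antigen, followed the same order of groups. It had 29.4 and 24.8 CPM in TUC libraries and 48.8 and 50.2 CPM in SLAM libraries, against 19.9 and 17.5 CPM in unconverted 4sU libraries. The 3 groups did not overlap: SLAM was highest and unconverted 4sU lowest. The log2 fold change against unconverted 4sU was 0.53 ± 0.114 in TUC and 1.40 ± 0.114 in SLAM. Fosl1, the AP-1 subunit Fra-1 that Ccdc85b overlaps, had 189 and 199 CPM in TUC and 260 and 247 CPM in SLAM, against 200 and 188 CPM in unconverted 4sU libraries. The Fosl1 difference in SLAM, 0.39 ± 0.0802 on the log2 scale, had an adjusted p of 0.0854 by edgeR's quasi-likelihood test, and of 4.77e-05 when the letter was a block. That block called 20.0% of all genes higher in SLAM. Fosl1 is named only because Ccdc85b was chosen on these contrasts, so its p-values are a description. Ccdc85a and Ccdc85c had SLAM log2 fold changes of −0.28 ± 0.195 and 0.20 ± 0.136.

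Zbed5, a zinc finger protein derived from a hAT transposase, was also highest in SLAM. It had 24.4 and 20.2 CPM in TUC libraries and 46.4 and 35.5 CPM in SLAM libraries, against 17.9 and 16.6 CPM in unconverted 4sU libraries. SLAM lay above TUC, and TUC above unconverted 4sU, with no overlap. The log2 fold change against unconverted 4sU was 0.37 ± 0.159 in TUC and 1.25 ± 0.159 in SLAM. Nupr1l, the nearest gene in RefSeq's table, had 0 to 7 counts per library.

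Rsc1a1, whose product lowers the amount of the sodium-glucose cotransporter SGLT1 at the cell membrane, was higher in SLAM and not in TUC. It had 11.7 and 10.4 CPM in TUC libraries and 21.6 and 24.6 CPM in SLAM libraries, against 11.4 and 12.7 CPM in unconverted 4sU libraries. Both SLAM libraries lay above the other 8, whereas TUC and unconverted 4sU libraries overlapped. The log2 fold change against unconverted 4sU was −0.13 ± 0.147 in TUC and 0.94 ± 0.145 in SLAM. Ddi2, the host gene, encodes a protease that activates the transcription factor Nrf1 (Nfe2l1). It had 74.9 and 88.7 CPM in TUC and 68.1 and 89.7 CPM in SLAM, against 91.7 and 112 CPM in unconverted 4sU libraries. All 4 converted Ddi2 values lay below both unconverted ones. Its log2 fold change was −0.31 ± 0.171 in TUC (adjusted p = 0.704 by edgeR, 0.00266 with the letter as a block) and −0.37 ± 0.171 in SLAM (adjusted p = 0.295 by edgeR, 0.000244 with the block). The block called 14.2% of all genes lower in TUC and 21.6% in SLAM. Ddi2 is named only because Rsc1a1 was chosen on these contrasts, and its counts may depend on how shared reads were assigned. Its p-values are therefore a description.

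Zbed6, a transposase-derived repressor of Igf2 in placental mammals, was the member that was lower after both chemistries. It had 17.9 and 20.0 CPM in TUC libraries and 7.96 and 27.8 CPM in SLAM libraries, against 47.0 and 74.0 CPM in unconverted 4sU libraries. All 4 converted libraries lay below all 6 others, and the SLAM libraries lay on either side of the TUC ones. The log2 fold change against unconverted 4sU was −1.67 ± 0.509 in TUC and −1.75 ± 0.509 in SLAM. In SLAM it was −1.12 without SLAM A and −2.93 without SLAM B. Zbed6 stood at place 7 from the lowest of 12218 genes in TUC and at place 20 in SLAM. Of the other Zbed genes, Zbed3 had a log2 fold change of 0.02 ± 0.146 in TUC and 0.27 ± 0.146 in SLAM, and Zbed4 had −0.28 ± 0.0967 in TUC and −0.20 ± 0.0963 in SLAM.

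Zc3h11a, a zinc finger protein of the TREX complex that takes part in messenger RNA export, overlapped between the groups in which its inner gene did not. It had 156 and 196 CPM in TUC libraries and 143 and 198 CPM in SLAM libraries, against 162 and 210 CPM in unconverted 4sU libraries. The groups overlapped, and replicate B was higher than A in all 5 groups. The log2 fold change was −0.08 ± 0.213 in TUC and −0.13 ± 0.213 in SLAM. None of the 12 TREX genes listed was called after either chemistry, with medians of 0.13 in TUC and 0.15 in SLAM. Under the block 4 of the 12 were called higher and 1 lower in TUC (11.6% and 14.2% of all genes), and 4 higher and 2 lower in SLAM (20.0% and 21.6% of all genes). Thoc2 had the lowest values among them, −0.45 ± 0.222 in TUC and −0.67 ± 0.223 in SLAM.

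**Figure D1:**
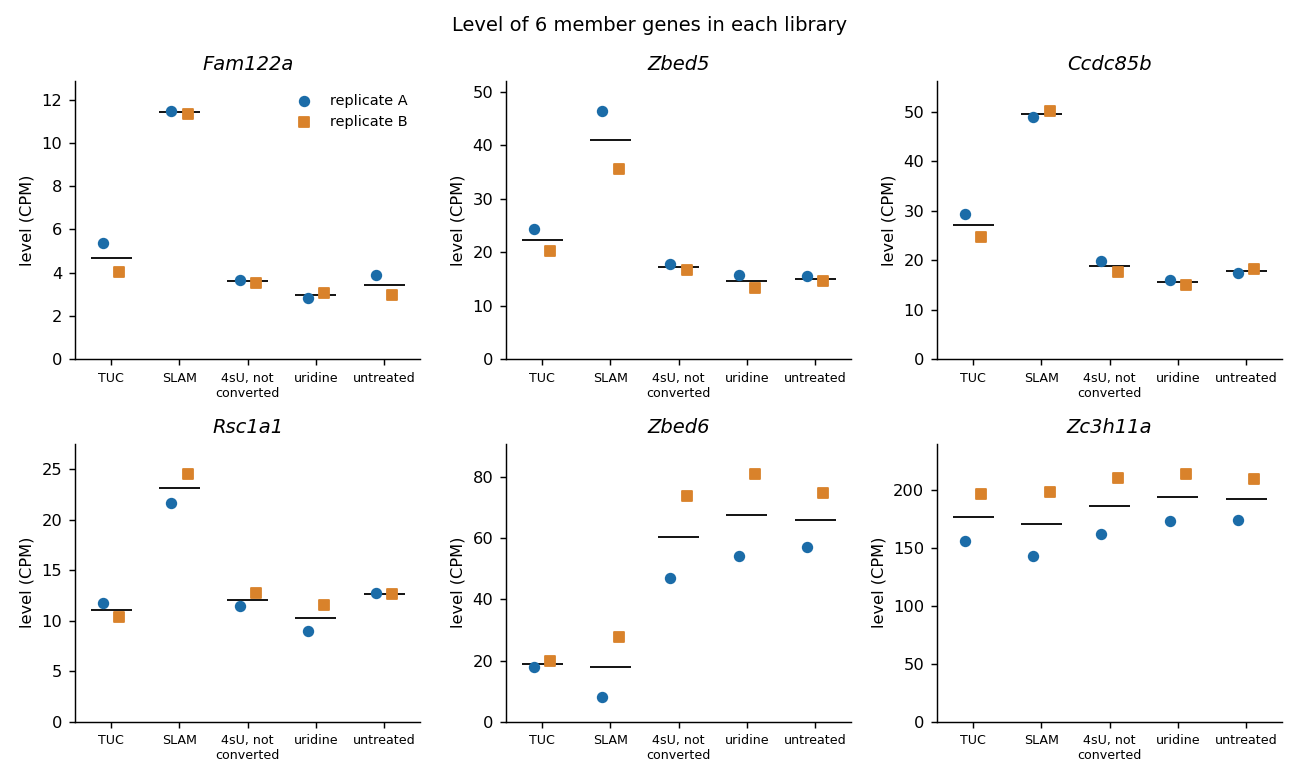
Level in CPM (y axis, linear from 0, with its own range in each panel) of 6 members in each of the 10 libraries, by group on the x axis. Circles are replicate A, squares replicate B and lines the mean of both, and SLAM is highest for Fam122a, Zbed5, Ccdc85b and Rsc1a1 while Zbed6 is low in TUC and SLAM.

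In TUC against unconverted 4sU, 3 of the 6 members tested had both TUC libraries above both unconverted ones, as had 18.4% of all 12218 genes tested, and 1 had both below, as had 18.9%. In SLAM against unconverted 4sU, 4 members lay above without overlap, as did 20.8% of genes, and 1 lay below, as did 22.6%. Since these contrasts chose the members, nothing is read from the counts or from a call of a member. No p is given for a member in these contrasts. Both use the same unconverted libraries.

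In TUC against SLAM, 4 of the 6 members had both TUC libraries below both SLAM libraries, as had 15.6% of genes. The log2 fold changes were −1.29 ± 0.179 for Fam122a, −1.06 ± 0.146 for Rsc1a1, −0.88 ± 0.157 for Zbed5 and −0.87 ± 0.113 for Ccdc85b. Zbed6, at 0.08 ± 0.506, and Zc3h11a, at 0.05 ± 0.213, overlapped between the chemistries. For Zbed6 the value was −0.56 without SLAM A and 1.25 without SLAM B, so its direction between chemistries depended on 1 SLAM library. These libraries also served to choose the members, and the values are a description.

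Uridine against untreated cells was a comparison that the choice of members did not use. None of the 6 members was called by edgeR's quasi-likelihood test (adjusted p = 1.0 for each). The test called 0.0% of genes, with 46 genes at an unadjusted p under 0.05 and 0 called by DESeq2. Rsc1a1 had 8.97 and 11.6 CPM with uridine, against 12.7 and 12.6 CPM in untreated cells, a log2 fold change of −0.30 ± 0.146. Ccdc85b had 16.0 and 15.0 CPM with uridine, against 17.3 and 18.2 CPM in untreated cells, a difference of −0.20 ± 0.115. These 2 members lay below without overlap, as did 7.33% of genes. Fam122a (−0.21 ± 0.191), Zbed5 (−0.04 ± 0.16), Zbed6 (0.04 ± 0.488) and Zc3h11a (0.01 ± 0.212) overlapped between uridine and untreated libraries.

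In unconverted 4sU against untreated libraries, the log2 fold changes of the 6 members tested lay between −0.13 and 0.20. The standard error reached 0.488, for Zbed6, so larger changes are not excluded. Zbed5 had 17.9 and 16.6 CPM in unconverted 4sU libraries, against 15.5 and 14.5 CPM in untreated ones, and was the 1 member of 6 without overlap, as were 17.3% of genes in that direction. Its log2 fold change was 0.20 ± 0.16. The other 5 lay between −0.13 ± 0.488 (Zbed6) and 0.08 ± 0.114 (Ccdc85b).

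Per kilobase of the deposited gene length, the order of the members changed after SLAM conversion. In SLAM libraries Ccdc85b was highest at 81.3 ± 1.56 CPM per kilobase (SD, n = 2), followed by Zc3h11a at 38.8 ± 8.87. Zbed5 (16.4 ± 3.10) came next, above Fam122a (13.3 ± 0.12) and Rsc1a1 (13.2 ± 1.20), which overlapped, and Zbed6 was lowest at 3.57 ± 2.80. In untreated libraries Zc3h11a was highest at 43.6 ± 5.64, followed by Ccdc85b at 29.2 ± 1.08 and Zbed6 at 13.2 ± 2.46. Rsc1a1 (7.23 ± 0.0375), Zbed5 (6.01 ± 0.269) and Fam122a (4.0 ± 0.782) were lower. Zbed6 thus stood above Rsc1a1, Zbed5 and Fam122a in untreated libraries and below them in SLAM libraries. The order between genes rests on the deposited lengths, and which parts of a gene these cover is not known here. They were 609 bases for Ccdc85b and 855 for Fam122a, against RefSeq spans of 4401 and 1696 bases. For Zbed6 the length and the span were both 5007 bases, so the order between genes is uncertain.

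The share of a pair's reads that fell in the inner gene sets both genes against each other within a library. Of the Zbed6 and Zc3h11a reads, Zbed6 took 10.3 and 9.24% in TUC and 5.28 and 12.3% in SLAM, against 22.5 and 26.1% in unconverted 4sU libraries. The exact (Clopper-Pearson) 95% intervals, which cover counting error only, were 4.64 to 5.98% for SLAM A and 11.6 to 13.1% for SLAM B. The spread between the SLAM libraries was thus wider than counting error, and all 4 converted shares lay below all 6 others, whose lowest was 22.5%. The pair's summed level was 174 and 216 CPM in TUC and 151 and 226 CPM in SLAM, against 209 and 284 CPM in unconverted 4sU libraries. The converted sums were lower than the unconverted one within each letter, while the groups as a whole overlapped.

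Rsc1a1 took 13.5 and 10.5% of the Rsc1a1 and Ddi2 reads in TUC and 24.1 and 21.5% in SLAM, against 11.1 and 10.2% in unconverted 4sU libraries. It took 8.54 and 9.06% with uridine, against 10.3 and 9.49% in untreated cells. The SLAM shares lay above all 8 others, the uridine shares lay below all 8 others, and the TUC shares overlapped with the unconverted ones. The difference between TUC and unconverted 4sU libraries was 1.37 percentage points, and −0.16 without TUC A. Ccdc85b took 13.4 and 11.1% of the Ccdc85b and Fosl1 reads in TUC and 15.8 and 16.9% in SLAM, against 9.05 and 8.52% in unconverted 4sU libraries. Both chemistries lay above the unconverted libraries for that pair. For Fam122a and Pip5k1b the inner gene took 99.1% or more of the reads in each of the 10 libraries.

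**Figure D2:**
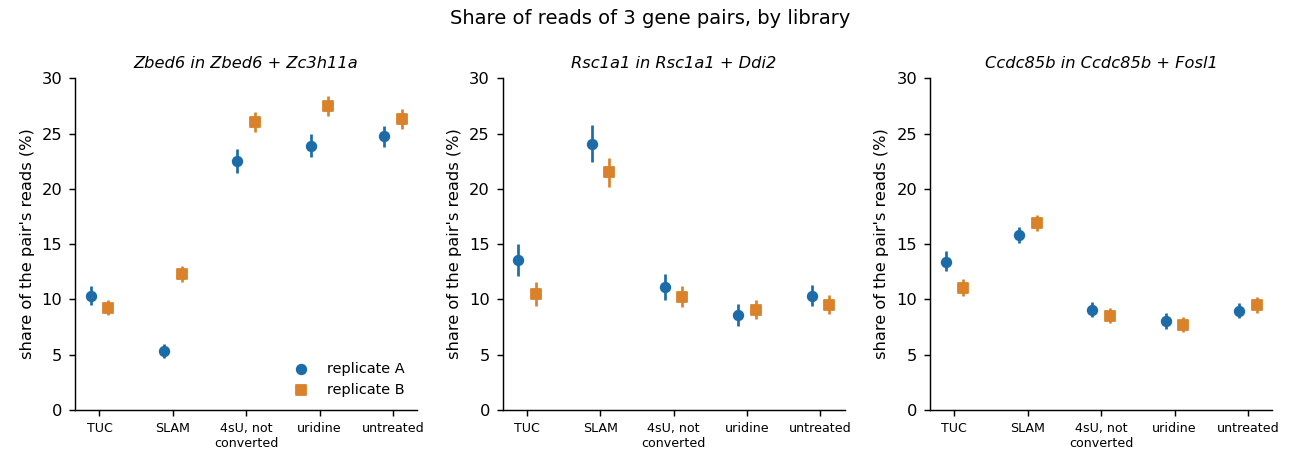
Share of a pair's reads (y axis, %) counted for the inner or overlapping gene, by group on the x axis, for Zbed6, Rsc1a1 and Ccdc85b. Circles are replicate A, squares replicate B and bars exact 95% intervals of counting error, and the Zbed6 share is lower in all 4 converted libraries while the Rsc1a1 share is higher in SLAM only.

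Across 389 pairs of nested gene and host with both genes tested, the inner gene's log2 fold change minus the host's had a median of 0.001 in TUC, with a 5th to 95th percentile of −0.35 to 0.49. In SLAM the same range was −0.65 to 0.51. Zbed6 minus Zc3h11a was −1.59 in TUC, the lowest of the 389 pairs, and −1.63 in SLAM, at place 2 from the lowest. Rsc1a1 minus Ddi2 was 0.19 in TUC, at place 88 from the highest, and 1.30 in SLAM, at place 8. These ranks describe values that chose the members. The inner genes of the 389 pairs were among 240 nested genes tested, so some entered with more than 1 host and the pairs are not independent. Pairs within a cluster of near-identical values, such as the gamma protocadherins, would give differences near 0 and narrow the ranges. How many pairs were of that kind was not counted.

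Of the 361 nested genes, 240 were tested against unconverted 4sU, among them the members Fam122a, Zbed6 and Rsc1a1, which these contrasts chose. In this set edgeR called 0 genes in TUC and 1 in SLAM. The 1 gene was a member, so its call is no result about nested genes. With the letter as a block 20.4% were called higher and 4.17% lower in TUC, beside 11.6% and 14.2% of all genes. In SLAM 30.4% were called higher and 11.2% lower, beside 20.0% and 21.6% of all genes. Without conversion, in unconverted 4sU against untreated, the block called 39 of the 240 higher and 5 lower, beside 6.97% and 12.9% of all genes. The 240 include 49 protocadherin genes, and those of the gamma cluster, 21 in number, had mostly near-identical values. Without the 49, a choice made after seeing the data, 15.7% were higher and 3.14% lower in TUC, and 27.2% higher and 11.5% lower in SLAM. The rest still held Ugt1a genes with near-identical values, such as Ugt1a1 and Ugt1a9 (each 0.286 in TUC and 0.242 in SLAM). These percentages therefore do not count independent genes. The median log2 fold change of all 240 was 0.11 in TUC and 0.10 in SLAM, beside 0.009 and 0.002 over all genes tested. In unconverted 4sU against untreated it was 0.097, beside 0.009. The TUC and SLAM medians are taken over the unconverted 4sU libraries, so they are a separate difference from that one. All of these medians include the genes with near-identical values, and a cause was not tested. Of the 240, 225 lay within 1 log2 unit in both TUC and SLAM against unconverted 4sU. Of the 15 others, Zbed6, Fam122a, Tmppe and Gdap10 exceeded 100 counts in a library, and the rest had at most 50. Gdap10, inside Nampt on the same strand, had 1.67 CPM in TUC and 1.29 CPM in SLAM, against 4.33 CPM in unconverted 4sU libraries. Tmppe, inside Glb1, had 6.76 CPM in TUC and 5.6 CPM in SLAM, against 11.9 CPM in unconverted 4sU libraries. At the high end in SLAM stood Fam122a, Rsc1a1, Tagap (0.71 ± 0.122), Tnfsf12 (0.65 ± 0.145) and Cers1 (0.58 ± 0.199), among 160 nested genes of 3 CPM or more. At the high end in TUC stood Rps27rt (0.64 ± 0.204), Tagap (0.54 ± 0.123), Rps12-ps3 (0.47 ± 0.297), Pam16 (0.45 ± 0.287) and Gm10131 (0.41 ± 0.3), so Fam122a and Rsc1a1 were not among them. The low end also held Pcdhb21 (−0.68 ± 0.217) and Pcdhb16 (−0.48 ± 0.26) in TUC, and Mtcp1 (−0.76 ± 0.331) and Chml (−0.60 ± 0.186) in SLAM. The 215 host genes tested had medians of −0.05 in TUC and 0.01 in SLAM.

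**Figure D3:**
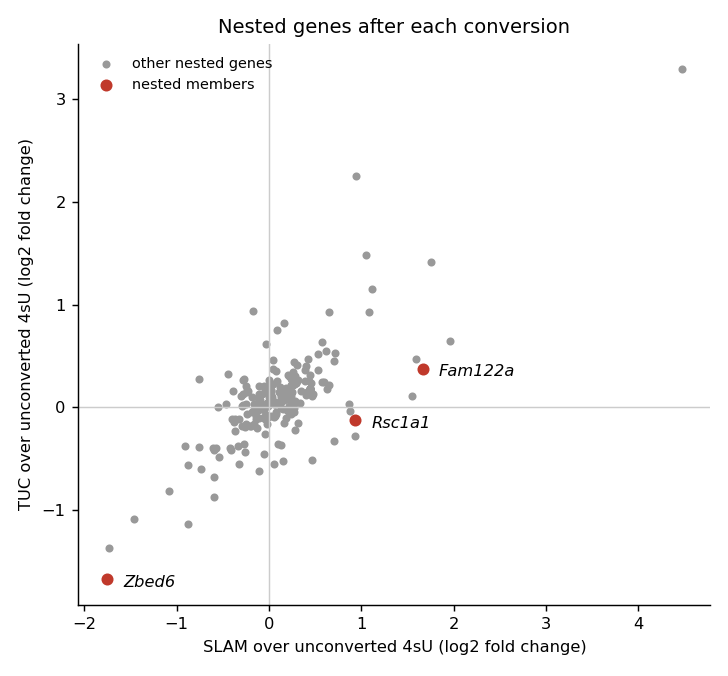
Log2 fold change over unconverted 4sU in SLAM (x axis) and in TUC (y axis) for the 240 nested genes tested, each a point. Members are red: Zbed6 is low on both axes, whereas Fam122a and Rsc1a1 are high on the SLAM axis and stand at 0.38 and −0.13 on the TUC axis.

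The new-to-total RNA ratio, which says how much of a transcript pool is younger than the label, was deposited by the authors as a fraction, and the members were not chosen by it. It separated the members widely. Fam122a had 100 and 97.5% new RNA in TUC and 88.1 and 94.6% in SLAM libraries. Rsc1a1 had 92.4 and 91.1% in TUC and 92.4 and 93.6% in SLAM, and its host Ddi2 had 91.6 and 94.5% in TUC and 92.1 and 94.5% in SLAM. Zbed6 had 76.9 and 78.3% in TUC and 76.5 and 74.7% in SLAM. Its host Zc3h11a had 73.1 and 75.1% in TUC and 71.7 and 73.9% in SLAM. The Zbed6 ratio thus lay above that of its host in all 4 libraries, and the Rsc1a1 ratio on either side of that of its host.

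Ccdc85b had 63.4 and 59.2% new RNA in TUC and 64.8 and 64.5% in SLAM, against 97.3 and 97.7% in TUC and 99.1 and 99.0% in SLAM for the overlapping Fosl1. Zbed5 was the member with the least new RNA, 28.4 and 30.4% in TUC and 21.1 and 23.7% in SLAM. Medians over 9813 genes were 52.3 and 60.7% in TUC and 50.2 and 58.9% in SLAM, so Zbed5 lay below the median in all 4 libraries, Ccdc85b below it in TUC B alone, and the other members above it. In unconverted 4sU and uridine libraries the medians were 1.0 to 1.9%.

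The ratios did not pass the test between chemistries for any member. By limma on the log2 odds of the ratio, Zbed5 had the largest difference among members, 0.53 ± 0.482 for TUC minus SLAM (adjusted p = 1.0, and 0.531 with the block). The 4 other members tested, Zbed6, Zc3h11a, Ccdc85b and Rsc1a1, lay between −0.26 and 0.16, with adjusted p of 1.0 by limma and 0.564 to 0.671 with the block. Fosl1 differed by −1.43 ± 0.482 (adjusted p = 0.295 by limma). In all, 0.499% of the 9813 genes were called. Fam122a was not tested because its ratio was 1 in TUC A. A p that misses the threshold does not show that the ratios were equal. Without the block the standard error was 0.482 for each of the 5 members and for Ddi2 and Fosl1. It is thus not the spread of any 1 gene, and it takes in the shift between letters. With the block it was 0.0852 to 0.178 for the 5 members. That fit has few libraries for its terms and called 0 of the 9813 genes, so a missed threshold there says little about any 1 gene.

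**Figure D4:**
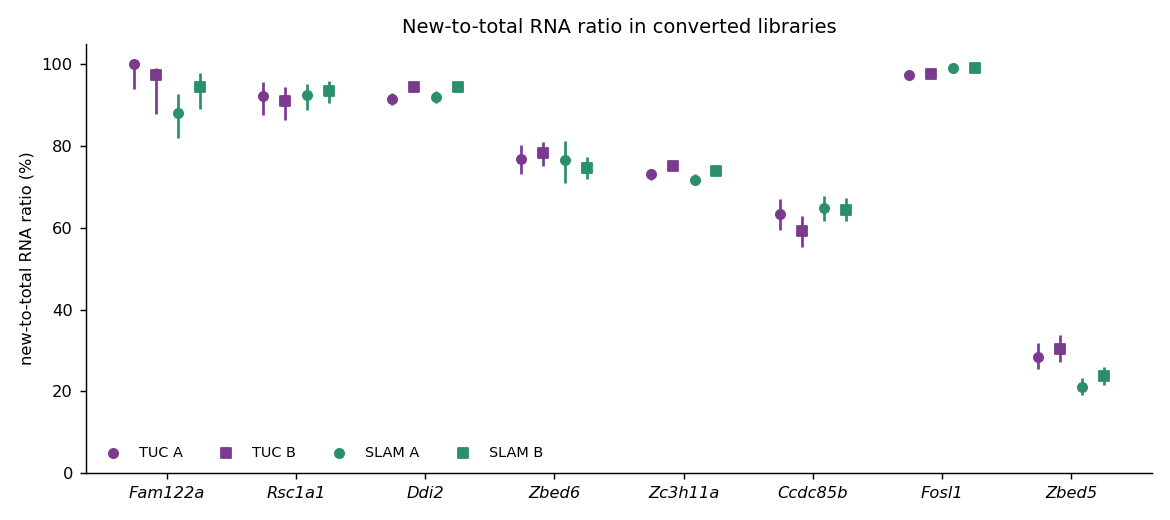
New-to-total RNA ratio (y axis, %) of 6 members and the partners Ddi2 and Fosl1 (x axis) in the 4 converted libraries. Points are posterior modes and bars run between the deposited 5% and 95% quantiles, and Zbed5 lies lowest, between 21.1 and 30.4%.

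Multiplying CPM by the ratio splits each level into new and pre-existing RNA. Pre-existing Zbed5 RNA was 15.8 ± 2.38 CPM in TUC and 31.8 ± 6.73 CPM in SLAM, against 15.0 ± 0.672 CPM for all Zbed5 RNA in untreated libraries. This was 1.05 times the untreated level in TUC and 2.13 times in SLAM, where the median ratio over 10202 genes was 0.374 and 0.391. These products carry the counts by which the members were chosen, so they too are a description.

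Pre-existing Ccdc85b RNA was 10.4 ± 0.459 CPM in TUC and 17.5 ± 0.451 CPM in SLAM, against 17.8 ± 0.661 CPM in all for untreated libraries. Its ratio to the untreated level was 0.587 in TUC and 0.986 in SLAM, above the median over genes in both. Rsc1a1 was higher in SLAM than in TUC in both parts. Its new RNA was 10.2 ± 0.976 CPM in TUC and 21.5 ± 2.13 CPM in SLAM. Its pre-existing RNA was 0.908 ± 0.0206 and 1.61 ± 0.0425 CPM in the same groups. The mean new-to-total ratio was 91.75% in TUC and 92.99% in SLAM, so most Rsc1a1 RNA was new in both. Fam122a had 4.64 ± 1.03 CPM new RNA in TUC and 10.4 ± 0.424 CPM in SLAM. Pre-existing Zbed6 RNA was 4.15 and 4.33 CPM in TUC and 1.87 and 7.02 CPM in SLAM, against 66.0 ± 12.3 CPM in all for untreated libraries. In TUC this was 0.0643 times the untreated level, against 0.237 times for its host Zc3h11a. In SLAM it was 0.0674 times, against 0.24 times for the host, and 0.106 without SLAM A and 0.0284 without SLAM B.

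**Figure D5:**
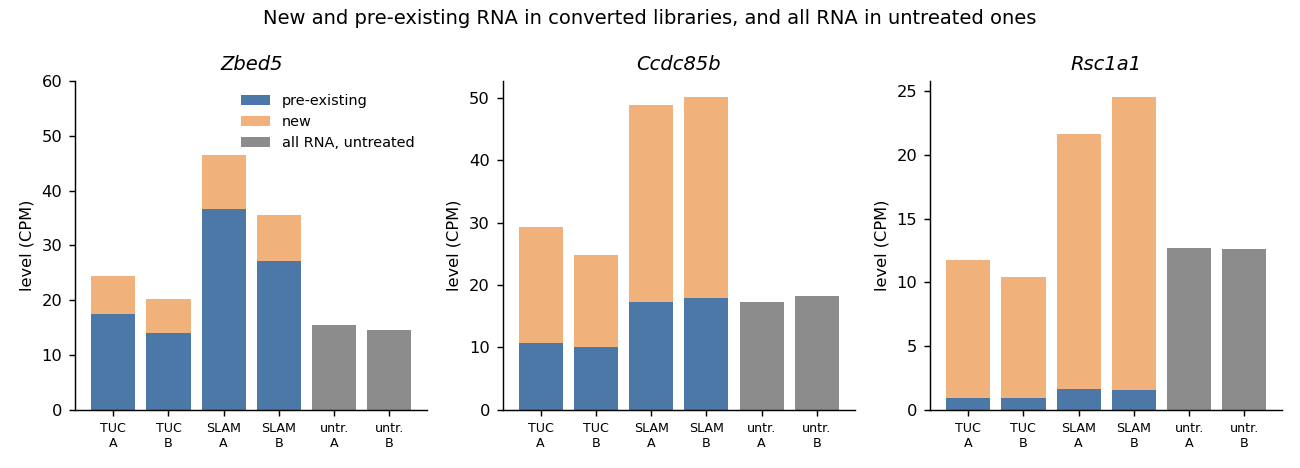
Level in CPM (y axis, linear from 0) of Zbed5, Ccdc85b and Rsc1a1 in each TUC, SLAM and untreated (untr.) library (x axis). Blue is pre-existing and orange new RNA in converted libraries, grey is all RNA in untreated ones, and the blue part of Zbed5 in SLAM is taller than the grey bars.

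As a description of patterns that the choice of members shaped, the genes whose centred log2 levels lay closest over the 10 libraries, among 8552 candidates, were Fyb and Kxd1 for Fam122a and for Zbed5. The root-mean-square difference was 0.331 and 0.332 for Fam122a, and 0.148 and 0.160 for Zbed5. For Ccdc85b they were Cebpb (0.228), a transcription factor of an intronless gene, and Fyb (0.237). For Rsc1a1 they were Kctd17 (0.184) and Sp2 (0.2). For Zbed6 they were the aminopeptidase Lnpep (0.350) and the copper transporter Atp7a (0.359), and for Zc3h11a Apln (0.0383) and B4galt5 (0.0413).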

How the data were processed

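Trimming and mapping used cutadapt, Bowtie2 2.3.0 and STAR 2.7.10b, per the submitters' processing notes. Genome build, annotation and counting rule were not given in the sources used here. The authors deposited expected counts of reads per gene, of which 24.8 to 30.3% per library were not whole, and a fraction per gene for 8 libraries (posterior mode with 5% and 95% quantiles, per the file headers), read here as a new-to-total RNA ratio. 24 columns were not used. Expected counts were rounded, filtered with filterByExpr (12218 genes), scaled with TMM factors and compared by the quasi-likelihood test of edgeR 4.0.16 under R 4.3.3 (Benjamini-Hochberg) in 1 fit over 10 libraries. Standard errors come from its F statistic. limma 3.58.1 tested the log2 odds of the ratio over 9813 genes. These averaged at least 100 reads over the 4 converted libraries, with a mode at least 0.001 away from 0 and from 1 in each. DESeq2 1.42.0, other scalings and filters, a replicate block and libraries left out in turn were alternatives. The fits were tested on simulated data.

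Groups and letters came from the sample titles. Whether replicates were separate cultures is not in the labels, so a p-value here reflects the spread of these samples alone, and this spread may be technical. The letters were taken to pair libraries, because A minus B differences correlated across genes for all 10 pairs of groups (r 0.584 to 0.69); edgeR's common dispersion fell to 0.00195 with the block, against 0.0187 in its absence. Members, lists and tests were chosen with earlier results of these data known. Named genes were the members, their neighbours, the 2 genes closest to each in pattern (mean of 10 CPM or more, predicted and clone names left out), and the 5 highest and 5 lowest nested genes in each chemistry. Nesting and promoter sequences came from RefSeq (GRCm38.p6), where 15497 symbols of the table were placed, and its gene coordinates were used only to say which genes neighbour each other.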

Additional observations from a re-analysis of the deposited data

How the results depend on the processing

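The replicate block changed the count of genes called most: 1 in uridine against untreated (0 without), 2432 in unconverted 4sU against untreated (20 without), 5079 in SLAM against unconverted 4sU (42 without), 3151 in TUC against unconverted 4sU (0 without), 2458 in TUC against SLAM (0 without), and 0 for the new-to-total ratio (49 without). DESeq2 called 241 genes in unconverted 4sU against untreated, 693 in SLAM and 15 in TUC against unconverted 4sU, 183 in TUC against SLAM and 0 with uridine. A fit on only the groups compared called 1 gene in unconverted 4sU against untreated and 0 in SLAM against unconverted 4sU. SLAM gave 22 genes with library totals only and 27 at a mean of 100 counts or more. Without a filter, TUC gave 2 genes against unconverted 4sU and 2 against SLAM. The ratio gave 25 genes at a mean of 500 reads or more, 2 with its lower bound and 16 with its upper bound. Leaving out 1 library in turn gave 2 to 17 genes for unconverted 4sU against untreated, 0 to 23 for SLAM against unconverted 4sU and 31 to 78 for the ratio. The SLAM count was 0 without either uridine, unconverted 4sU or SLAM library, 3 without either untreated one, and 22 or 23 without TUC A or B. The cause was not tested, beyond fewer samples or genes in those fits.

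The 102 alternative member values in each of SLAM and TUC against unconverted 4sU kept their direction except for Zc3h11a, whose values ran from −0.38 to 0.10 in SLAM and −0.26 to 0.12 in TUC. In TUC against SLAM those of Zbed6 and Zc3h11a took both signs, and in unconverted 4sU against untreated those of all members but Zbed5. With uridine 7 of 102 turned, all with a library left out: Fam122a ran from −0.40 to 0.003, Zbed6 from −0.28 to 0.30 (−0.14 without untreated A), Zc3h11a from −0.15 to 0.16 (−0.11 without untreated A) and Zbed5 from −0.16 to 0.071 (0.003 without untreated A). The Rsc1a1 share in TUC minus unconverted 4sU ran from −0.16 to 2.90 percentage points. Depth allowed no test of Pip5k1b, at 0 to 1 counts, and Fam122a had 78 to 386.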

Other observations

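Genes without introns, of which 35 were listed and 27 tested, gave a median log2 fold change of 0.05 in TUC and 0.26 in SLAM, each against unconverted 4sU, beside medians of 0.009 and 0.002 over all genes tested. In TUC against SLAM their median was −0.18. With the letter as a block 4 of the 27 were called higher and 3 lower in TUC (11.6% and 14.2% of all genes), and 17 higher and 4 lower in SLAM (20.0% and 21.6% of all genes). Of the 27, 20 had a value above 0 in SLAM and 17 in TUC. Cebpb, a transcription factor gene, averaged 225 CPM in TUC and 359 CPM in SLAM, against 188 CPM in unconverted 4sU libraries, and was the 1 gene of the list called, in SLAM (0.94 ± 0.137, adjusted p = 0.0444 by edgeR). Jund, an AP-1 subunit, averaged 51.9 CPM in TUC and 75.9 CPM in SLAM, against 48.8 CPM in unconverted 4sU libraries, and Junb averaged 37.6, 47.7 and 36.5 CPM in the same groups. Sox4 averaged 140 CPM in TUC and 120 CPM in SLAM, against 152 CPM in unconverted 4sU libraries. The list was chosen with earlier results of these data known, and nothing particular to it is read from these values.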
